A study of Mus musculus with 12 samples.

Results

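The 10 genes described here encode surface receptors and proximal signalling proteins of T lymphocytes, measured in hind limb muscle. They are Cd3d, Cd3e, Cd3g, Cd247, Cd4, Cd8a, Cd8b1, Lck, Cd2 and Cd5. The genes were chosen by symbol, with earlier results of these data known, and are 10 of the 22923 distinct gene symbols listed. None of them was listed more than once. RNA of proximal hind limb muscle was sequenced from 12 male mice of 22 weeks of age on an FVB background, with 3 mice in each of 4 groups. Wild-type (WT) mice and αB-crystallin/HspB2 knockout (KO) mice were each fed either normal chow or a high fat diet. The deletion removes both Cryab and Hspb2 in every tissue, so an effect of 1 of the genes, or of muscle alone, cannot be told apart from the rest. WT and KO mice came from heterozygous breeding, and the sample titles call the WT mice Flox. By the methods, high fat diet with 60% of calories from fat began at 6 weeks of age.

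A T cell recognises antigen through its receptor, whose variable chains are held in the membrane by the CD3 chains and the zeta chain encoded by Cd247. CD4 or CD8 binds the MHC molecule beside the antigen and brings the kinase Lck, which phosphorylates the CD3 and zeta tails. CD2 is an adhesion receptor and CD5 dampens the receptor's signal. Resting skeletal muscle holds few lymphocytes, while lymph nodes lie within the fat of the hind limb, behind the knee and in the groin.

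Cryab was at 412 to 837 FPKM in the 6 WT libraries and at 0.845 to 1.75 FPKM in the 6 KO libraries, and Hspb2 at 81.5 to 103 and 0.353 to 1.92 FPKM, so both fitted the titles in all 12. FPKM is a level per kilobase of transcript and scaled to the library's total fragments. The genotype entry of 6 samples goes against their title: all 3 WT mice on high fat diet, KO mouse 3 on normal chow and KO mice 1 and 2 on high fat diet. Groups were taken from the titles. No 2 libraries held identical values. Relative depth, read from the steps between low values, differed by at most 1.35 times, and Spearman correlations between libraries over genes were 0.963 to 0.984. The muscle label fitted the muscle creatine kinase gene Ckm, at 13276 to 25896 FPKM. Acta1, the main actin of skeletal muscle, is listed at 0 in WT mouse 1 on normal chow and KO mouse 2 on high fat diet and lay between 22322 and 35165 FPKM elsewhere. A value of 0 in these files can therefore be a failed estimate, and T cell genes at 0 are called "listed at 0" here.

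The 3 CD3 genes are neighbours. In the GENCODE M21 annotation of build GRCm38, Cd3g (chr9:44969572-44980431, minus strand) and Cd3d (chr9:44981786-44987339, plus strand) start 1355 bp apart and run away from each other, and Cd3e follows at chr9:44998740-45009627 on the minus strand. The cluster lies 5.74 Mb from Cryab on the same chromosome. Cd8b1 (chr6:71322788-71337494) and Cd8a (chr6:71373427-71379173) lie on the plus strand with starts 50639 bp apart, and Cd4 (chr6:124864692-124888221, minus strand) is on the same chromosome. Cd247 (chr1:165788681-165877277, plus strand), Lck (chr4:129548344-129573641, minus strand), Cd2 (chr3:101275899-101287939, minus strand) and Cd5 (chr19:10717116-10739002, minus strand) lie elsewhere. All 10 are annotated as protein-coding.

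The 250 bases before the start of Cd3d, Cd3g, Cd3e, Cd247 and Lck are shown, from RefSeq on GRCm38.p6 and written 5′ to 3′ along the gene. Capitals mark AGGAAG or its reverse complement CTTCCT, a core bound by ETS family factors such as ETS1. This motif was picked after the sequences had been read. The windows are chr9:44981536-44981785 (plus strand) for Cd3d, chr9:44980432-44980681 (minus strand) for Cd3g, chr9:45009612-45009861 (minus strand) for Cd3e, chr1:165788431-165788680 (plus strand) for Cd247 and chr4:129573642-129573891 (minus strand) for Lck.
Cd3d: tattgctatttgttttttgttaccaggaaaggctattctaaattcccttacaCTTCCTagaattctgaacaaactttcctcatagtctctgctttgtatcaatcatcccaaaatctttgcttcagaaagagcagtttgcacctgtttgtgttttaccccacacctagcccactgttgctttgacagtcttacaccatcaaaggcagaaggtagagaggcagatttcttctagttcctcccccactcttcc
Cd3g: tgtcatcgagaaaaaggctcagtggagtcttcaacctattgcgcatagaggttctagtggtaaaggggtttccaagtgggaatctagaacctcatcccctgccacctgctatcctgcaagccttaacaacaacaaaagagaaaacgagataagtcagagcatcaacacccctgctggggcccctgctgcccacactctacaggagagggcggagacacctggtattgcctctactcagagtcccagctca
Cd3e: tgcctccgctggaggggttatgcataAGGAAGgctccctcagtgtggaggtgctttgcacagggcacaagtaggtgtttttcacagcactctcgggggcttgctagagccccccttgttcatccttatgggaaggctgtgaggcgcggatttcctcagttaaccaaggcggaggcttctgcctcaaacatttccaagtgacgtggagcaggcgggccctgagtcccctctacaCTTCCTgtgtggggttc
Cd247: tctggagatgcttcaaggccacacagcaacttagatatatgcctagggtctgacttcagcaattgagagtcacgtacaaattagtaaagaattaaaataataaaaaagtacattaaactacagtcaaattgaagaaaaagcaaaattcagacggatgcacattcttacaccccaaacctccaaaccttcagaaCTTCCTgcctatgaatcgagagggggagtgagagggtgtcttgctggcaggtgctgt
Lck: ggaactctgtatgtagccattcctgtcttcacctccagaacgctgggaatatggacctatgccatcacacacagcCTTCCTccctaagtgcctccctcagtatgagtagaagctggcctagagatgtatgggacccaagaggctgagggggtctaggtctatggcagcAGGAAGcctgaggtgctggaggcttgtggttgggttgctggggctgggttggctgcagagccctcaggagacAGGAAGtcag
The motif stood in 6 of the 8 windows of the 7 T cell genes that have an entry, and 9686 of all 32851 windows of the same length held it on either strand (29.5%). Since the letters were picked on these windows, nothing is read from their count. It lay 57 bases before the start of Cd247 and 198 bases before that of Cd3d, and the letters are absent from the windows of Cd3g and Cd8a. Cd4, Cd8b1 and Cd2 have no entry. A match in the sequence is a description and does not show binding.

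The 10 genes were high together in WT mouse 2, KO mouse 1 and KO mouse 3, all on normal chow, and low in the other 9 mice. In each of these 3 libraries all 10 genes were above 1 FPKM, and in the other 9 none was. The high level was thus found in 1 of 3 WT mice and 2 of 3 KO mice on normal chow, and in 0 of 6 mice on high fat diet. RNA of whole muscle was measured, so more T cells cannot be told apart from more T cell RNA per cell.

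**Figure D1:**
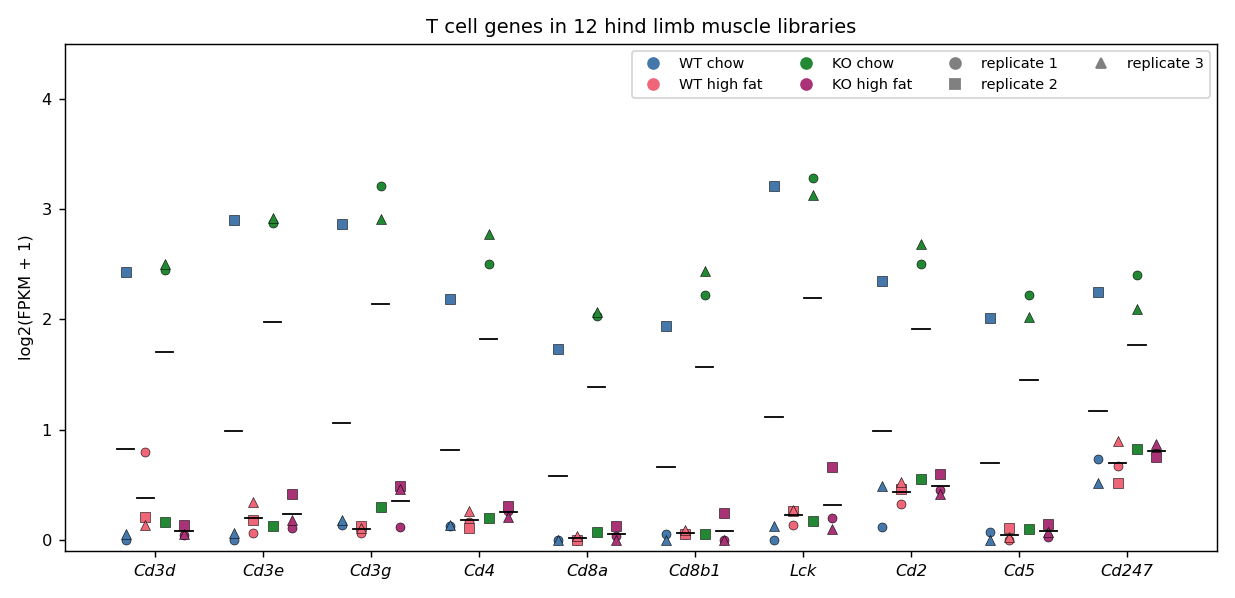
Level of each T cell gene in the 12 libraries, as log2(FPKM + 1); colours are the 4 groups, symbols the replicates, and bars the means of the 3 mice of a group on this scale. For every gene WT chow 2, KO chow 1 and KO chow 3 lie above the other 9 points, with the narrowest gap for Cd247.

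Of the CD3 chains, Cd3g and Cd3e reached the highest levels of the 10 genes after Lck. On chow, Cd3e, the chain most used to define T cells, was listed at 0 in WT mouse 1, reached 6.46 FPKM in mouse 2 and 0.0420 FPKM in mouse 3, and the KO mice 1, 2 and 3 had 6.33, 0.0881 and 6.58 FPKM. After high fat feeding its values were 0.0441, 0.136 and 0.269 FPKM for WT and 0.0772, 0.335 and 0.136 FPKM for KO mice. The lowest of the 3 high libraries was 18.9 times the highest of the other 9. Within both chow groups Cd3e thus fell into a high and a low level, and no mouse lay between 0.335 and 6.33 FPKM.

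Cd3d, the delta chain, was listed at 0 in chow-fed WT mouse 1, while mice 2 and 3 had 4.38 and 0.0368 FPKM and the chow-fed KO mice 4.45, 0.117 and 4.68 FPKM. The mice fed high fat diet had 0.736, 0.155 and 0.09997 FPKM (WT) and 0.0334, 0.0989 and 0.0388 FPKM (KO). WT mouse 1 on high fat diet stood out in Cd3d among the 9 low libraries, with no such value in Cd3e (0.0441 FPKM) or Cd3g (0.0460 FPKM).

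Cd3g, the gamma chain, had levels of 0.0954, 6.30 and 0.133 FPKM in chow-fed WT and 8.25, 0.233 and 6.55 FPKM in chow-fed KO mice. With high fat feeding the WT mice had 0.0460, 0.0934 and 0.0805 FPKM and the KO mice 0.0818, 0.3996 and 0.381 FPKM. Among the low libraries KO mice 2 and 3 on high fat diet were the highest in Cd3g.

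Cd247, which encodes the zeta chain used by the T cell receptor and also by receptors of natural killer cells, had the smallest gap between its high and low libraries. Chow-fed WT mice had 0.662, 3.77 and 0.428 FPKM and chow-fed KO mice 4.28, 0.768 and 3.28 FPKM. Fed high fat diet, WT mice had 0.590, 0.428 and 0.867 FPKM and KO mice 0.730, 0.686 and 0.825 FPKM. Its lowest high library was 3.78 times the highest of the other 9, and it was never listed at 0.

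The coreceptor Cd4, of helper T cells, stood at 0.0925, 3.54 and 0.10002 FPKM in chow-fed WT and at 4.66, 0.151 and 5.83 FPKM in chow-fed KO mice. High fat-fed WT mice had 0.121, 0.0765 and 0.196 FPKM, and high fat-fed KO mice 0.196, 0.234 and 0.154 FPKM. Cd4 is also made by some dendritic cells, and it had a value above 0 in all 12 libraries.

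The coreceptor Cd8a, of cytotoxic T cells, was the gene most often listed at 0, in 5 of the 9 low libraries. On chow, WT mouse 2 had 2.31 FPKM with WT mice 1 and 3 listed at 0, and the KO mice had 3.08, 0.0478 and 3.20 FPKM. Under high fat feeding it was listed at 0 in WT mice 1 and 2 and KO mouse 3, and WT mouse 3 and KO mice 1 and 2 had 0.0273, 0.0276 and 0.0943 FPKM. Its partner chain Cd8b1 showed 0.0362 and 2.84 FPKM in chow-fed WT mice 1 and 2, was listed at 0 in WT mouse 3, and showed 3.67, 0.0348 and 4.41 FPKM in chow-fed KO mice. High fat-fed WT mice had 0.0352, 0.0363 and 0.0620 FPKM of Cd8b1, and of the KO mice only number 2 had a value above 0, at 0.182 FPKM. The 2 chains of the CD8 dimer thus shared the same high libraries and the same highest low library, KO mouse 2 on high fat diet.

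Lck, the kinase carried by CD4 and CD8, reached the highest level of the 10 genes. Among chow-fed mice it was listed at 0 in WT mouse 1, with 8.27 and 0.0932 FPKM in WT mice 2 and 3 and 8.73, 0.124 and 7.73 FPKM in the KO mice. Among high fat-fed mice the values were 0.0998, 0.201 and 0.208 FPKM for WT and 0.144, 0.578 and 0.0727 FPKM for KO. Lck led the 10 genes in each of the 3 high libraries, and KO mouse 2 on high fat diet was again the highest of the low ones.

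The adhesion receptor gene Cd2 gave 0.087, 4.09 and 0.402 FPKM in WT and 4.69, 0.470 and 5.42 FPKM in KO mice under chow, and 0.254, 0.381 and 0.438 FPKM in WT and 0.365, 0.512 and 0.338 FPKM in KO mice under high fat feeding. It was above 0 in every library. For Cd5, chow-fed WT mice 1 and 2 had 0.0494 and 3.04 FPKM, WT mouse 3 is listed at 0, and the chow-fed KO mice had 3.67, 0.0725 and 3.06 FPKM. With high fat feeding Cd5 is listed at 0 in WT mouse 1, was 0.0751 and 0.0210 FPKM in WT mice 2 and 3, and was 0.0210, 0.104 and 0.0505 FPKM in KO mice. Cd5 had the widest gap of the 10 genes, its lowest high library being 29.2 times its highest low one, and Cd2 the next narrowest after Cd3d and Cd247, at 7.99 times.

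Summed over the 10 genes, chow-fed mice had 1.02, 45.0 and 1.24 FPKM (WT) and 51.8, 2.11 and 50.8 FPKM (KO). The sums after high fat feeding were 1.93, 1.58 and 2.27 FPKM (WT) and 1.68, 3.22 and 1.997 FPKM (KO). The 3 high libraries held 89.6% of the sum over all 12, from 65.4% for Cd247 and 81.4% for Cd2 to 97.8% for Cd8a. All 3 of these libraries lay above the other 9 in 1218 of the 14813 genes tested (8.22%), and above 2 times the highest of the other 9 in 274 (1.85%). For each of the 10 T cell genes the same ratio was at least 3.78, which describes these libraries only, since they were picked out by these genes.

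The proportions between the genes were of similar size in the 3 high libraries, some steadier than others. Cd4 was 1.53, 1.51 and 1.82 times Cd8a in WT mouse 2, KO mouse 1 and KO mouse 3, per length of transcript. Cd8b1 was 1.23, 1.19 and 1.38 times Cd8a, and Cd3e was 1.48, 1.42 and 1.41 times Cd3d. Cd3g varied more, at 1.44, 1.85 and 1.40 times Cd3d. Lck was 1.28, 1.38 and 1.17 times Cd3e, and Cd247 was 0.582, 0.676 and 0.498 times Cd3e. Relative to Ptprc, the pan-leukocyte gene that encodes CD45, the summed level of the 10 genes was 4.27, 4.402 and 3.91 in the high libraries and 0.739 to 1.41 in the other 9. Ptprc itself was 10.6, 11.8 and 13.0 FPKM in the high libraries, and 0.863 to 2.54 FPKM in the other 9.

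Among the other 9 libraries the order of the genes was another one. Cd247 was the highest of the 10 genes in 8 of these 9 and second to Cd3d in WT mouse 1 on high fat diet. Cd247 made up 21.3% to 64.8% of the sum there, against 6.46% to 8.36% in the 3 high libraries. Of the other genes 6 were listed at 0 in at least 1 of the 9 libraries, and their order changed from library to library.

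Each gene's log2(FPKM + 1) followed the mean of the other 9 genes over the 12 libraries with a Pearson r of 0.975 for Cd3d to 0.998 for Cd8a. With 3 high and 9 low libraries, these values mostly describe the step between the 2 sets. The 10 other genes most like the mean of the T cell genes had an r of 0.997 to 0.998 over the 12 libraries. Among them were Rasal3, Il21r (the interleukin 21 receptor), Sh2d2a (an adaptor of T cells), Bcl11b (a T lineage transcription factor), Ccr7 (the receptor that guides T cells into lymph nodes), Cd6, Lat (the adaptor phosphorylated after receptor signalling), H2-Ob (an MHC class II related chain of B cells) and Gimap3. Gimap3 was the highest of those named, at 10.4 to 12.3 FPKM in the 3 libraries and 0.144 to 0.616 FPKM in the other 9. Ccr7 was at 5.15 to 7.13 FPKM and Lat at 6.99 to 8.60 FPKM in the 3 libraries, and both were below 1 FPKM in the other 9. Cd6, which encodes a receptor related to CD5, starts 91056 bp from Cd5 on chromosome 19.

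Markers of other cells were examined beside these results, by lists of genes chosen with earlier results of these data known. All 10 of 10 B cell genes were higher in the same 3 libraries than in every other, against 8.22% of all genes tested. Some, such as Cr2 at 0.0153 FPKM at most elsewhere, passed the filter only through these libraries. The summed levels were 66.3, 73.4 and 77.5 FPKM against 0.288 to 6.70 FPKM. The summed T cell level was 0.679, 0.706 and 0.655 times the B cell sum in WT mouse 2, KO mouse 1 and KO mouse 3, and 0.287 to 7.32 times in the other 9. Of 5 measured genes of lymph node stroma and high endothelium, the vessels through which lymphocytes enter a node, the sum was 54.8, 77.1 and 92.1 FPKM against 2.14 to 4.47 FPKM. Glycam1, a defining gene of high endothelium, was at 11.9, 19.5 and 34.3 FPKM in the 3 libraries, listed at 0 in 7 of the other 9 and at 0.0895 FPKM at most in the rest. The chemokine genes Ccl19 and Cxcl13, which organise T and B cell areas, were at 28.1 to 38.9 and 14.3 to 19.1 FPKM against 1.24 to 3.24 and 0.306 to 3.17 FPKM. Genes of early thymocytes were near 0 in every library, with a summed level of 0.438 FPKM at most, and Rag1, needed to assemble the receptor genes, reached 0.214 FPKM at most.

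**Figure D2:**
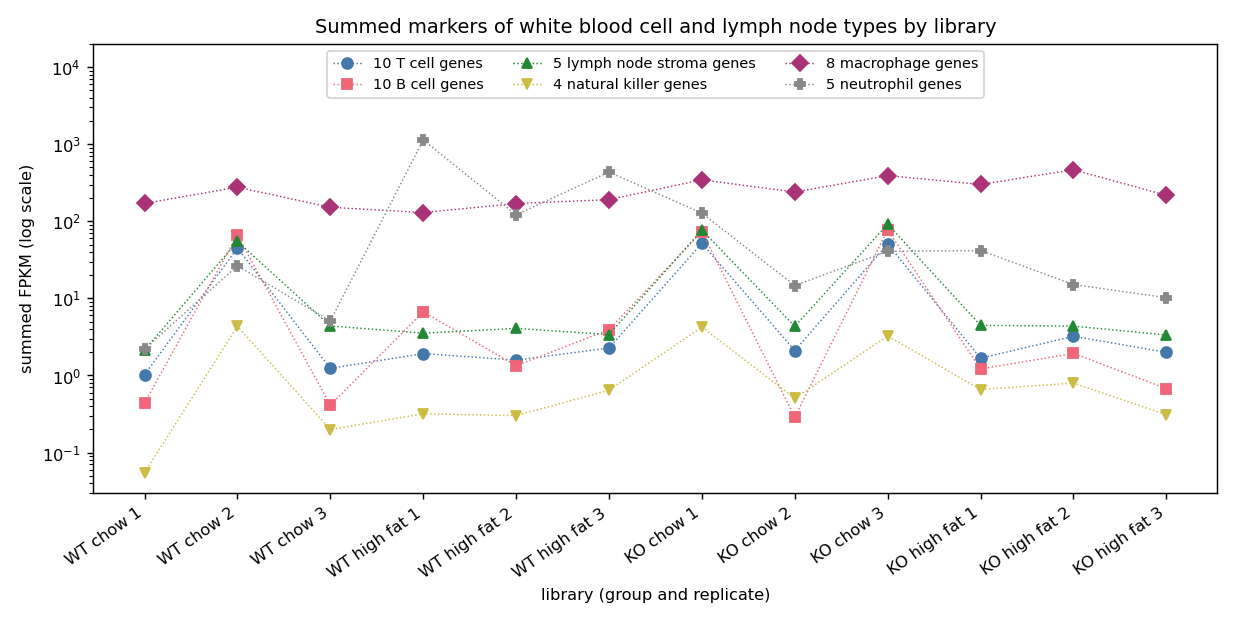
Summed FPKM of 6 marker lists in each of the 12 libraries, on a log scale; dotted lines only join the points of a list. The T cell, B cell, lymph node stroma and natural killer sums peak together in WT chow 2, KO chow 1 and KO chow 3, the macrophage sums of the 3 lie within the range of the rest, and the neutrophil sum is highest in WT mice 1 and 3 on high fat diet.

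The 4 natural killer genes summed to 3.25 to 4.34 FPKM in the 3 libraries and 0.0549 to 0.796 FPKM in the others. The plasma cell gene Igj, the immunoglobulin joining chain, was at 19.9, 36.2 and 46.8 FPKM in the 3 libraries and at 2.90 FPKM at most elsewhere. Of the other plasma cell genes measured, Derl3 was also higher there, at 0.504 to 1.90 against 0.165 FPKM at most. Tnfrsf17 was not, at 0.277 to 1.02 against 0.858 FPKM at most. None of 8 macrophage genes separated the 3 libraries from the rest, with sums of 277 to 392 FPKM against 130 to 467 FPKM, and none of 5 neutrophil or 4 adipocyte genes did. Ckm was at 18104, 15178 and 13276 FPKM in WT mouse 2, KO mouse 1 and KO mouse 3, and at 17661 to 25896 FPKM in the other 9, so that both KO mice lay below the rest. Relative depth was the highest of all in KO mice 1 and 3 on normal chow, at 1.35 and 1.30, and 1.14 in WT mouse 2, against 1.00 to 1.20 elsewhere. The part of depth and of other cell types in the levels of the T cell genes was not tested.

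The effect of diet was asked first, in each genotype. In WT mice 0 of the 10 T cell genes passed the threshold between high fat diet and normal chow, against 10 of 14813 genes in all (0.0675%; limma, Benjamini-Hochberg adjusted p of 0.05). At an unadjusted p under 0.05 it was 0 of 10, against 8.22% of all genes. Their differences on the log2(FPKM + 1) scale, which understates changes of low genes, were all negative, from -0.96 for Cd3g to -0.45 for Cd3d, with a median of -0.62 against -0.01 over all genes. For Cd3e the difference was -0.79 (SE 0.82, 95% interval -2.59 to 1.01, limma adjusted p = 0.866). Without WT mouse 2 on chow the differences of 9 of the 10 genes were positive, up to 0.35 for Cd3d, and that of Cd3g was -0.05. The groups did not overlap for 1 of the 10 genes, against 13.1% of all genes. This was Cd3g, where the highest mouse on high fat diet (0.0934 FPKM) lay just under the lowest on chow (0.0954 FPKM).

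In KO mice again 0 of 10 genes passed, against 2 of 14813 genes (0.0135%). Their differences ran from -1.88 for Lck to -0.97 for Cd247, with a median of -1.53 against 0.01 over all genes and limma adjusted p of 0.428 to 0.449. At an unadjusted p under 0.05, 7 of the 10 genes were lower, against 5.48% of all genes. The 10 genes share the step made by KO mice 1 and 3 on chow, so this count holds the same step several times. Cd8a, at 0.0943 FPKM at most in the other 9 libraries, passed the filter only through the high ones. So did Cd8b1 and Cd5, with medians of 0.0352 and 0.0494 FPKM in the other 9. These genes are among the 7 counted. For Cd8a the difference was -1.33 (SE 0.54, 95% interval -2.52 to -0.15, limma adjusted p = 0.428), and for Lck it was -1.88 (SE 0.90, 95% interval -3.86 to 0.11, limma adjusted p = 0.449). KO mouse 2 on normal chow was as low as the mice on high fat diet, and the groups did not overlap for 1 of the 10 genes, against 16.6% of all genes. This was Cd3d, at 0.117 FPKM in KO mouse 2 on chow and at 0.0989 FPKM at most on high fat diet.

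Averaged over both genotypes, 0 of 10 genes passed, against 7 of 14813 (0.0473%). The differences were -1.38 for Lck to -0.72 for Cd247, with limma adjusted p of 0.337 to 0.369 and 7 of 10 at an unadjusted p under 0.05 (6.27% of all genes were lower at that level). This count too holds the same step several times, made by WT mouse 2 and KO mice 1 and 3 on chow. It also includes Cd8a, Cd8b1 and Cd5, which passed the filter only through these libraries. With the 3 high libraries left out, a choice made after the data were seen, the averaged diet differences of the 10 genes were between -0.0048 and 0.15. In that fit KO mouse 2 alone stands for the KO mice on chow and is assumed to vary like the other groups. These libraries were left out because the same genes were high in them, so smaller differences follow from that choice and are no test of the diet.

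**Figure D3:**
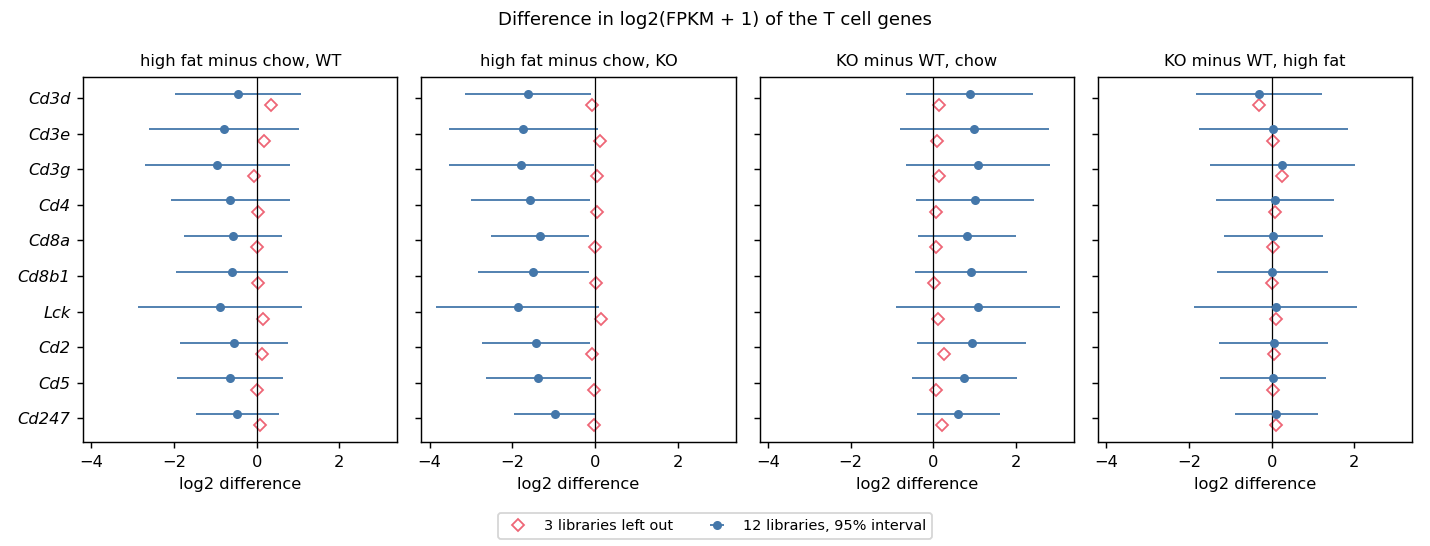
Difference in log2(FPKM + 1) of each T cell gene in 4 comparisons; filled circles are the fit to all 12 libraries with 95% intervals, and open diamonds the fit without the 3 libraries in which these genes were high. The circles lie below 0 for diet and above 0 for genotype on chow. In those panels the diamonds, which leave out the libraries picked by these genes, lie between -0.08 and 0.35. For genotype on high fat diet, which uses none of these libraries, the diamonds equal the circles, at -0.30 to 0.25.

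For genotype on normal chow, 0 of 10 genes passed, against 7 of 14813 (0.0473%), and 0 of 10 had an unadjusted p under 0.05, against 15.3% of all genes. The differences, KO minus WT, were 0.61 for Cd247 to 1.08 for Cd3g with a median of 0.92, and limma adjusted p was 0.431 to 0.527. Of the 3 KO mice 2 were high and of the 3 WT mice 1, and 0 of the 10 genes had groups that did not overlap, against 17.3% of all genes. For Cd4 the difference was 1.01 (SE 0.65, 95% interval -0.43 to 2.45, limma adjusted p = 0.434). Without the 3 high libraries the differences were 0.02 to 0.25.

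For genotype on high fat diet, where no library was high, the differences were -0.30 for Cd3d to 0.25 for Cd3g with a median of 0.05. Again 0 of 10 passed, against 17 of 14813 (0.115%), with limma adjusted p of 0.901 to 0.997. At an unadjusted p under 0.05 it was 0 of 10, against 15.4% of all genes. The intervals stayed wide, since the spread was estimated over all 4 groups: that of Cd3e ran from -1.76 to 1.84 around 0.04. Cd3d was higher in each WT mouse than in each KO mouse on this diet, by 0.09997 against 0.0989 FPKM at the closest, and was the 1 of 10 genes without overlap, against 22.6% of all genes. The interaction, the diet difference in KO mice minus that in WT mice, was -1.18 for Cd3d to -0.50 for Cd247. It passed for 0 of 10 and 0 of 14813 genes (0%), and at an unadjusted p under 0.05 for 0 of 10 and 6.39% of all genes.

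Of 75 further T cell genes in 5 lists, 68 passed the filter of a mean of 0.1 FPKM over the 12 libraries, and 1, Cd28, passed the threshold in any comparison. In WT mice, the difference between diets was negative for 63 of these 68 genes, against 53.4% of all genes tested, and in KO mice for 60, against 48.1%. Of the 68 genes, 54 were higher in the 3 high chow libraries than in every other, against 8.22% of all genes tested. They are therefore not independent of the 10 genes above. The 3 libraries were picked out by their T cell genes, and genes that are low elsewhere pass the filter through them, so the counts per list only describe these libraries. Among 24 genes of T cell receptor signal transduction, 20 were higher in the 3 libraries than in every other, such as Csk, the kinase that restrains Lck, at 13.7 to 15.4 against 5.88 to 9.78 FPKM, and the phospholipase gene Plcg1, at 8.19 to 8.85 against 4.96 to 8.09 FPKM. The other 4 were Fyn, Prkcq, Sla2 and Nfatc2, and they were picked out after their values were seen, apart from Prkcq and Sla2. Prkcq, a protein kinase C of T cells that muscle fibres also make, was the highest of the list, at 22.6 to 29.3 FPKM in the 3 libraries and 25.6 to 37.6 FPKM in the other 9. Sla2, an adaptor that dampens receptor signalling, was at 9.48 to 10.6 and 10.04 to 12.3 FPKM.

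Of 14 transcription factors of T cells, 9 were higher in the 3 libraries, among them Ets1, at 15.8 to 17.2 against 5.50 to 9.37 FPKM. Satb1, a chromatin organiser, was not, at 10.6 to 15.2 FPKM in the 3 libraries and 11.7 to 17.2 FPKM in the others, nor was Zbtb7b, a factor of the CD4 lineage, at 14.1 to 17.0 and 10.9 to 15.8 FPKM. Of 12 cytokine and homing receptors, 10 were higher, with Il2rg, the shared chain of several interleukin receptors, at 13.2 to 15.0 against 2.21 to 3.52 FPKM. S1pr1, which guides exit from lymph nodes and is also made by endothelium, was at 20.9 to 24.8 and 13.3 to 25.7 FPKM. Of 11 cytokines and cytotoxic granule genes, 7 were too low to be tested. The highest was the chemokine Ccl5, at 21.3, 31.2 and 24.9 FPKM against 3.98 FPKM at most.

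Cd28, the main costimulatory receptor of T cells, had another pattern. Chow-fed mice had 3.78, 3.61 and 2.99 FPKM (WT) and 3.65, 3.87 and 3.51 FPKM (KO). High fat-fed mice had 0.386, 1.30 and 0.907 FPKM (WT) and 1.69, 1.82 and 2.28 FPKM (KO). All 6 mice on chow were above all 6 on high fat diet, and 0.675% of all genes separated the diets in this way in either direction. On chow the mice with high and low T cell genes had about the same level. WT mouse 1 on chow, where Cd3e, Cd3d, Cd8a and Lck are listed at 0, had 3.78 FPKM of Cd28. Its r with the mean of the T cell genes over the 12 libraries was 0.487.

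On high fat diet Cd28 fell by 1.28 on the log2(FPKM + 1) scale in WT mice (SE 0.16, 95% interval -1.64 to -0.93, limma adjusted p = 0.0205), from 3.46 ± 0.418 to 0.865 ± 0.460 FPKM (SD, n = 3). Averaged over both genotypes it fell by 0.98 (SE 0.11, 95% interval -1.24 to -0.73, limma adjusted p = 0.0191), where 1 of 14813 genes passed as lower (0.00675%). In KO mice the difference was -0.68 (SE 0.16, 95% interval -1.04 to -0.32, limma adjusted p = 0.279), from 3.68 ± 0.183 to 1.93 ± 0.311 FPKM (SD, n = 3). The groups did not overlap, as for 16.6% of all genes. The interaction, 0.60 (SE 0.23, limma adjusted p = 0.693), did not pass. Under high fat feeding Cd28 was 0.68 higher in KO than in WT mice (SE 0.16, limma adjusted p = 0.0975), without overlap, as for 22.6% of all genes.

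The call in WT mice was lost when WT mouse 1, 2 or 3 on chow or WT mouse 3 on high fat diet was left out (limma adjusted p = 0.0536 to 0.116). It was also lost with the compared groups alone (limma adjusted p = 0.224), with genotype from its own label (0.647) and with a replicate block (0.0538), and over 15 alternatives the limma adjusted p ran from 0.00715 to 0.647. The averaged call was lost without WT mouse 2 or 3 on chow, KO mouse 1 on chow, or KO mouse 1 or 2 on high fat diet (limma adjusted p = 0.0564 to 0.0786). It was also lost with a pseudocount of 0.1 (limma adjusted p = 0.0780), with genotype from its own label (0.514) and with a replicate block (0.0773), and over 20 alternatives it ran from 0.00514 to 0.514. Without the 3 high libraries Cd28 differed by -1.26 in WT mice (limma adjusted p = 0.197) and by -0.9995 averaged (limma adjusted p = 0.239). WT mouse 1 on high fat diet, the lowest in Cd28, had the highest summed neutrophil genes (1138 FPKM) and the lowest Adipoq, the adipocyte gene of adiponectin (1.40 FPKM), of all 12 libraries. Summed neutrophil genes were at 122 to 1138 FPKM in WT mice given high fat and 2.19 to 26.5 FPKM in those given chow, and erythroid genes at 9.44 to 19.97 and 2.33 to 4.46 FPKM. Their part in the Cd28 difference was not tested.

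**Figure D4:**
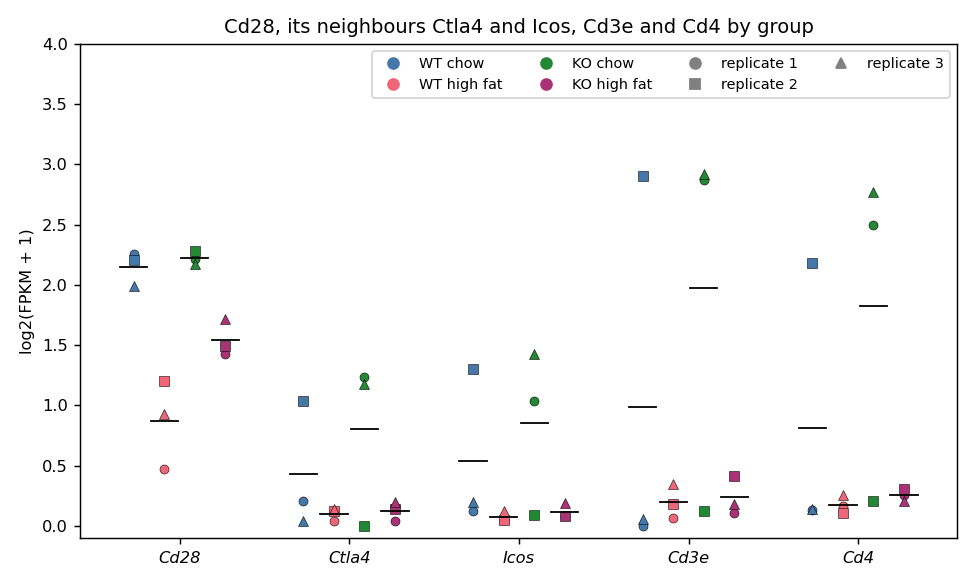
Levels of Cd28, Ctla4, Icos, Cd3e and Cd4 in the 12 libraries as log2(FPKM + 1); colours are the groups, symbols the replicates, and bars the group means on this scale. Cd28 separates the mice by diet in both genotypes, while the other 4 genes separate WT chow 2, KO chow 1 and KO chow 3 from the rest.

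Cd28 (chr1:60716800-60773359, plus strand) is followed on chromosome 1 by Ctla4, its inhibitory counterpart, from 60887000 and by the costimulator gene Icos from 60977927, both chosen for display after their values were seen. Ctla4 was 1.05, 1.36 and 1.27 FPKM and Icos 1.46, 1.05 and 1.69 FPKM in WT mouse 2, KO mouse 1 and KO mouse 3 on chow. In the other 9 libraries Ctla4 did not exceed 0.154 FPKM nor Icos 0.145 FPKM, as in the T cell genes. In WT mice the diet difference was -0.33 for Ctla4 (SE 0.32, limma adjusted p = 0.865) and -0.47 for Icos (SE 0.34, limma adjusted p = 0.801). Of the 14 costimulation and checkpoint genes, 12 were higher in the 3 libraries than in every other, and Cd28 and Tnfrsf4 were not. Tnfrsf4, the costimulatory receptor OX40, was at 2.71 to 3.48 FPKM in the 3 libraries and 1.47 to 2.73 FPKM in the others.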

How the data were processed

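RNA of 12 muscle samples was sequenced on an Illumina HiSeq2000. Per the labels, the submitters' processing notes name TopHat2 2.0.8b, Cuffdiff 2.1.1 and build mm10. The authors deposited 23179 FPKM values per library, with replicates not pooled. Of 22923 symbols 158 were listed more than once, and the entry with the highest mean was kept. The unit was read from the values. Depth in reads is unknown, so no counting interval is given and the number of mice limits the precision. Samples were grouped by title, and p-values rest on the spread between mice within groups, estimated over all 4 groups of 3 mice.

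The 14813 genes with a mean of at least 0.1 FPKM over the 12 libraries were tested on log2(FPKM + 1) by limma (version 3.58.1, R 4.3.3), fitting 4 group means and a variance trend over intensity. P-values were two-sided and adjusted by Benjamini-Hochberg, with a threshold of 0.05. The code was tested on simulated data, with changes planted only in genes of far higher level than the T cell genes. It does not show how the test performs for genes this low, or with a high and a low level within a group. Summaries used Python 3.11.15, NumPy 2.4.6, pandas 2.3.3 and Matplotlib 3.10.9.

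All 10 T cell genes passed the filter, and 3 libraries made up most of their means. The members, lists and tests were chosen with earlier results of these data known. Genes to be named were the members, Cryab, Hspb2, list genes past the threshold or otherwise the 4 highest of a list, and the 10 most alike by r. A few genes that this rule names are not reported here. The list genes Mzb1, Ccl21a, Ly6g, Hbb-b1 and Hba-a1 were not analysed here. Alternatives were a pseudocount of 0.1, no filter, an FPKM of at least 1 in 3 samples, the replicate number as a block, the groups compared alone, genotype by its own label, size factors, robust moderation and each library left out. Leaving out 3 libraries together was added after the data were seen.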

Additional observations from a re-analysis of the deposited data

How the results depend on the processing

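Not every alternative applied to all 6 comparisons: the groups compared alone gave no averaged value or interaction, and a left-out library entered only the comparisons that use it. In each that was run 0 of the 10 T cell genes passed the threshold, and the lowest adjusted p over 1000 values was 0.0787. Of these 1000 differences 51 changed sign, given here on the log2(FPKM + 1) scale. With each library left out in turn, the diet difference in WT mice ran from -0.86 to 0.35 for Cd3d, -1.28 to 0.17 for Cd3e, -0.98 to 0.0437 for Cd4, -0.85 to 0.0130 for Cd8a, -0.93 to 0.0370 for Cd8b1, -1.45 to 0.16 for Lck, -0.98 to 0.13 for Cd2, -0.998 to 0.0101 for Cd5 and -0.80 to 0.0710 for Cd247. All 9 changed sign without WT mouse 2 on chow. Between genotypes under high fat feeding the range was -0.0509 to 0.11 for Cd3e, -0.0627 to 0.0580 for Cd8b1, -0.0771 to 0.20 for Lck and -0.00613 to 0.0929 for Cd2, and between genotypes on chow -0.00622 to 0.12 for Cd28. Without the 3 libraries of high T cell genes, diet in WT mice gave 0.35 for Cd3d, 0.17 for Cd3e, 0.0437 for Cd4, 0.0130 for Cd8a, 0.0370 for Cd8b1, 0.16 for Lck, 0.13 for Cd2, 0.0101 for Cd5 and 0.0710 for Cd247. Diet in KO mice then gave 0.11 for Cd3e, 0.0533 for Cd3g, 0.0535 for Cd4, 0.0311 for Cd8b1 and 0.15 for Lck. Averaged over genotypes it gave 0.14 for Cd3d, 0.14 for Cd3e, 0.0486 for Cd4, 0.00103 for Cd8a, 0.0341 for Cd8b1, 0.15 for Lck, 0.0338 for Cd2 and 0.0267 for Cd247, and the interaction gave 0.11 for Cd3g and 0.00981 for Cd4.

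With genotype taken from its own label, the genotype difference under high fat feeding was 0.21 for Cd3d, -0.0690 for Cd3e, -0.11 for Cd3g, -0.0969 for Cd4, -0.0749 for Cd8a, -0.0737 for Cd8b1, -0.23 for Lck, -0.0889 for Cd2, -0.0351 for Cd5, -0.0345 for Cd247 and -0.38 for Cd28, and the interaction 0.15 for Cd3d and -0.47 for Cd28. A pseudocount of 0.1 gave -0.0269 for Cd8b1 in the former. Counts over all genes ran from 0 to 50 for diet in WT mice (10 as reported), 0 to 18 in KO mice (2), 0 to 23 averaged (7), 0 to 16 for genotype on chow (7), 0 to 76 on high fat diet (17) and 0 to 4 for the interaction (0). The cause was not tested.

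The deviations of same-numbered mice had an r of 0.35, -0.06 and 0.20 for diet in WT mice. The lowest r was -0.73, for mouse 2 of each genotype on chow. For diet in WT mice, mice 1 and 3 deviated most like the mouse of their own number, and in no other case was this so. With 3 mice per group these values cannot settle whether the numbers pair samples. With the replicate number as a block 0 of 10 T cell genes passed in any comparison, 7, 0, 1, 4, 9 and 0 of all genes did in the order above, and Cd28 had an adjusted p of 0.0538 in WT mice and 0.0773 averaged. Depth in reads is unknown, which limits what values below 1 FPKM can show.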

Other observations

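Adipoq was 116, 224 and 195 FPKM in WT mouse 2, KO mouse 1 and KO mouse 3 on normal chow, and 1.40 to 125 FPKM in the other 9 libraries. In these mice Plin1 was at 46.3 to 114, Cidec at 70.8 to 136 and Lep at 11.8 to 42.6 FPKM. Elsewhere they were at 0.609 to 51.6, 0.802 to 138 and 0.316 to 93.4 FPKM. None of the 4 adipocyte genes was higher in these mice than in every other. The proliferation gene Top2a was 1.14, 0.799 and 1.30 FPKM in WT mouse 2, KO mouse 1 and KO mouse 3, and did not exceed 0.567 FPKM in the others. Of 4 proliferation genes, 2 were higher in these mice than in every other, against 8.22% of all genes tested. Mki67, at 0.562 to 0.744 against 0.653 FPKM at most, was not, nor was Cdk1, at 0.374 to 0.783 against 0.496 FPKM at most.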
